A study of Mus musculus with 6 samples.

Results

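The Hox genes were taken from total RNA-seq of hair follicle stem cells (HFSCs) as every row of the count table whose symbol is Hoxa, Hoxb, Hoxc or Hoxd followed by a number, which gave 39 of 56941 genes. They are 11 genes of the Hoxa cluster, 10 of Hoxb, 9 of Hoxc and 9 of Hoxd. The cells had been sorted by FACS from the epidermal fraction of trypsin-treated dorsal skin, by CD34 and α6-integrin at the cell surface, from female mice of strain B6;129S4-Dab2tm1Cpr/J at postnatal day (PD) 68. There were 3 libraries labelled WT, from mice with the genotype K14 Cre- Dab2fl/fl, and 3 labelled Dab2-cKO, from K14 Cre+ Dab2fl/fl mice. Both genotypes carried the floxed Dab2 allele, and by the study's protocol both received tamoxifen by injection into the abdomen, at 75 mg per kg and day for 5 days. The keratin 14 promoter that drives the Cre is active in basal keratinocytes and not in HFSCs alone. The labels speak of biological replicates and do not say how many mice went into each.

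Hox genes encode transcription factors that bind DNA through the homeodomain and give cells a position along the body axis. Their order on the chromosome follows the order in which they act, with paralog group 1 toward the head and paralog group 13 at the tail end, and genes of the same group in different clusters descend from a common ancestor. Adult skin keeps a Hox pattern of its body region in the dermis and, to some extent, in the epidermis. Hoxc13 has an additional role outside the axial pattern, in the matrix and the differentiating shaft of the hair, where it controls hair keratin genes, and loss of its function leaves mice without normal hair.

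Between 7040032 and 11696457 counts were assigned to genes in each library, and the Hox genes together held 1808 to 3181 of them. Their share was 0.0327 to 0.0336% under the label WT and 0.0186 to 0.0193% under the label Dab2-cKO. Dab2 itself, the targeted gene, went against the labels, with 327 ± 15.4 normalized counts (SD, n = 3) under WT and 1375 ± 68.2 under Dab2-cKO. A normalized count is the count divided by the effective library size and brought to the mean size of the 6 libraries. Because Dab2 went against the labels, and because the count table names the second group by its floxed alleles, which both genotypes carry, every direction below is that of the library labelled Dab2-cKO over the library labelled WT. The stem cell markers Cd34, Itga6, Krt15, Krt5 and Krt14 were found in all 6 libraries, and so were markers of cells that the sort should leave out. Fibroblast markers summed to 102281 to 123613 normalized counts under WT and to 356574 to 376341 under Dab2-cKO, and 10 of 10 were higher. Skeletal muscle markers summed to 54901 to 64013 against 259971 to 263020, and 7 of 7 were higher. Hair matrix and inner root sheath markers summed to 222667 to 268112 against 2355 to 2417, and 9 of 9 were lower. Among all genes in the test below, 16.8% were called higher and 11.5% lower. In such bulk samples, fewer cells of a type and less RNA per cell cannot be told apart.

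Hoxc13 (chr15:102829538-102837249, plus strand, GRCm39) had the highest level per length of the 39 genes in the libraries labelled WT, with 234 ± 18.3 normalized counts per kb of exon. It lies at one end of the Hoxc cluster, where the other genes of the cluster follow in falling paralog number. The sequence that sets a Hox protein's DNA contacts is the homeobox of 180 bases, and that of Hoxc13 is given first, followed by the homeoboxes of its paralogs, because only reads that differ between such copies can be assigned to one gene. Capitals mark the bases that differ from Hoxc13, all sequences are from GRCm39 on the coding strand, and the positions are chr15:102835645-102835824 for Hoxc13 (plus), chr6:52235908-52236087 for Hoxa13 (minus), chr2:74500274-74500453 for Hoxd13 (plus) and chr11:96086846-96087025 for Hoxb13 (plus).
Hoxc13: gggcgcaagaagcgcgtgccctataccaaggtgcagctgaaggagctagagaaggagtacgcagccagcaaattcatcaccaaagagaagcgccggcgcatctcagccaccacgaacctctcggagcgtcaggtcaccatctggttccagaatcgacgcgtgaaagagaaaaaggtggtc
Hoxa13: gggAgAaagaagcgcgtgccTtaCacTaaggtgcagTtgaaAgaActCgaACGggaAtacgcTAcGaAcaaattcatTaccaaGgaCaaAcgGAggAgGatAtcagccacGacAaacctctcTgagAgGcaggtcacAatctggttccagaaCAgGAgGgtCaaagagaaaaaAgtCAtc
Hoxd13: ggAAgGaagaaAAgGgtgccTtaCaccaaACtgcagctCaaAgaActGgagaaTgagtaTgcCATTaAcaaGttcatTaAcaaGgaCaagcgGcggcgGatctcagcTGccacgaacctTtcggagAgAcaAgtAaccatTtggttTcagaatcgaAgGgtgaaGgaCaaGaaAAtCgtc
Hoxb13: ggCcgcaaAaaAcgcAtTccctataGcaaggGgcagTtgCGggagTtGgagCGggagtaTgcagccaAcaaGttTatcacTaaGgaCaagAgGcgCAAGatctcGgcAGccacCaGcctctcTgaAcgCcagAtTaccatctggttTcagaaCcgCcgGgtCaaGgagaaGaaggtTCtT
The number of bases that differ from Hoxc13 was 41 in Hoxa13, 45 in Hoxd13 and 47 in Hoxb13, and no identical run was longer than 14 bases. Over the 741 pairs of the 39 homeoboxes, the median identity was 80.6% within a paralog group and 60.6% between groups, and the longest identical run was 52 bases.

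The next levels under WT were those of the middle paralog groups, Hoxb7 with 108 ± 20.4, Hoxb6 with 86.1 ± 2.64 and Hoxa7 with 84.9 ± 6.94 normalized counts per kb. The ranges of mean and SD overlapped between each pair of these genes. Hoxb8, Hoxa6, Hoxc6, Hoxc8, Hoxd8 and Hoxb4 followed within a narrow band of 39.8 to 41.7 per kb, and their order is not beyond their spread. Olfactory, vomeronasal and trace amine receptor genes, which skin cells should lack, served as a background. In 1969 such genes, the 95th percentile was 14.4 normalized counts per kb under WT and 13.1 under Dab2-cKO. Of the 39 Hox genes, 17 stood above it under WT, 20 under Dab2-cKO, 15 in both and 17 in neither. The other 3 members of paralog group 13 were among those below, with 3.13 ± 0.265 per kb for Hoxa13, 3.77 ± 2.61 for Hoxd13 and 5.77 ± 2.00 for Hoxb13 under WT.

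**Figure D1:**
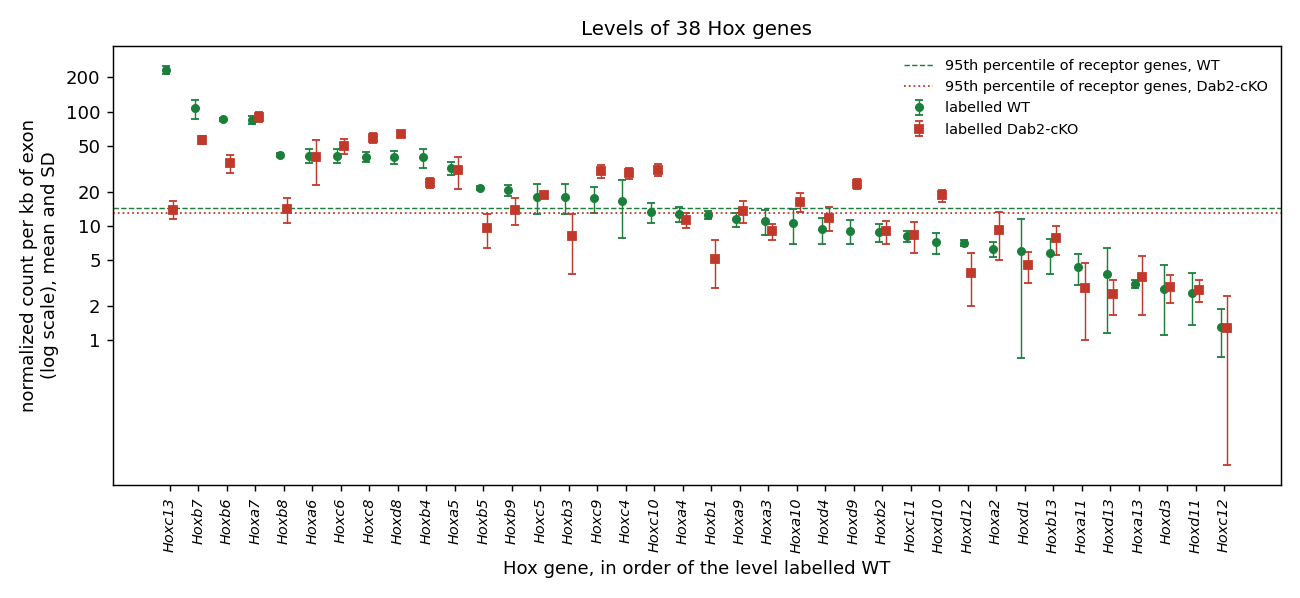
Normalized count per kb of exon (log axis) of 38 of the 39 Hox genes, ordered by the level in the libraries labelled WT, as mean and SD of 3 libraries. The dashed and dotted lines mark the 95th percentile of 1969 chemosensory receptor genes in each group, 14.4 and 13.1. Hoxc13 holds rank 1 under WT with 234 and rank 18 under Dab2-cKO with 13.9.

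Under Dab2-cKO the order was another. Hoxa7 held the first rank with 90.6 ± 8.48 normalized counts per kb, followed by Hoxd8 with 64.1 ± 2.07, Hoxc8 with 59.4 ± 5.71 and Hoxb7 with 56.6 ± 4.53. The ranges of the mean and SD overlapped between Hoxd8 and Hoxc8 and between Hoxc8 and Hoxb7. Hoxc13, at 13.9 ± 2.52 per kb, had rank 18 and stood near the background limit of 13.1.

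The libraries labelled Dab2-cKO were compared with those labelled WT by edgeR's quasi-likelihood test over 32149 genes, and a gene was called at a Benjamini-Hochberg adjusted p under 0.05. Of the 39 Hox genes, 34 passed the filter on low counts, 8 were called lower and 7 were called higher. Hoxa11, Hoxa13, Hoxc12, Hoxd1 and Hoxd13 did not pass, with 0 to 26 counts per library. Over all genes tested, 28.2% were called, 11.5% lower and 16.8% higher. The median log2 fold change was 0.04 over the Hox genes and -0.02 over all genes. The 2 groups of libraries did not overlap in 17 Hox genes, 9 with every library labelled Dab2-cKO below and 8 with every one above, where 17.7% and 20.6% of all genes did so. An exact permutation test on 3 against 3 libraries cannot go below p = 0.1, and that value held for each gene without overlap. In Hoxb, 7 of 10 genes were lower and none higher, with a median of -1.01. In Hoxc, 1 of 8 was lower and 4 were higher, with a median of 0.43, and in Hoxd 3 of 7 were higher and none lower, with a median of 0.33. In Hoxa none of 9 was called in either direction by edgeR or by DESeq2, 1 had an unadjusted p under 0.05, and the median was 0.09.

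**Figure D2:**
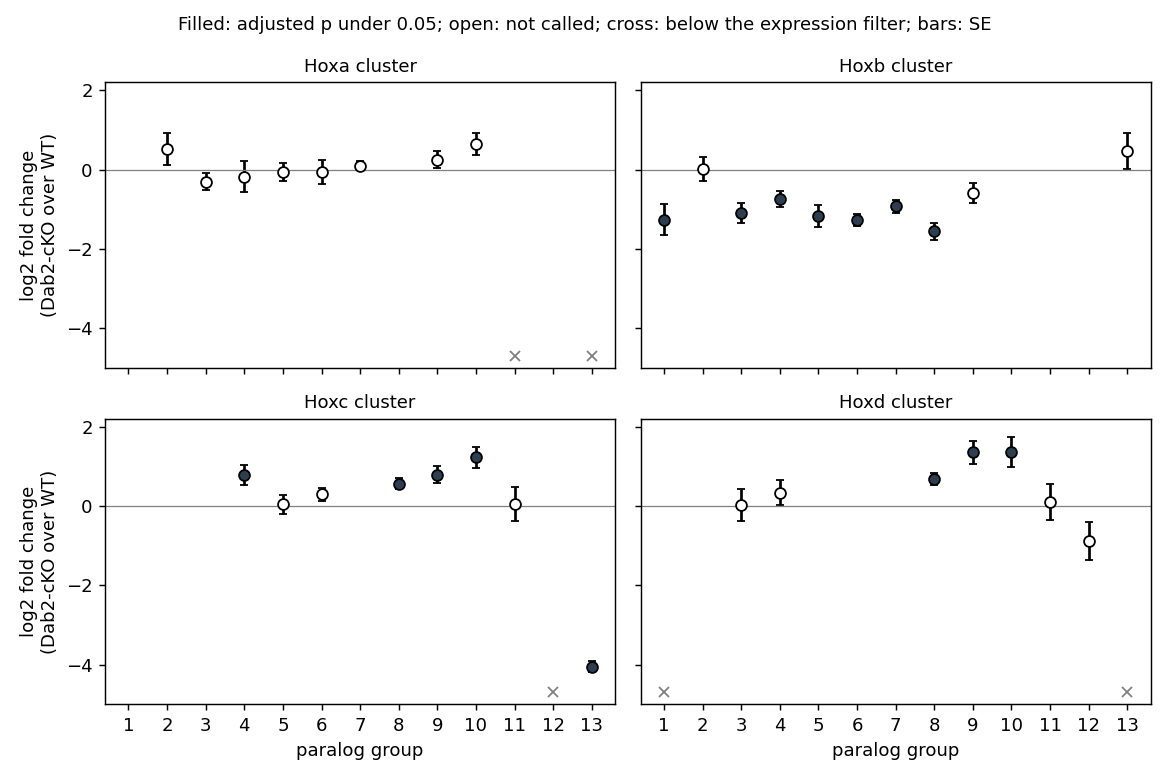
Change from WT to Dab2-cKO on the log2 scale by paralog group in the 4 clusters, with SE bars. Filled points have an adjusted p under 0.05 (edgeR), open points were not called, and crosses mark the 5 genes below the filter. Hoxc13 stands at -4.05, the called Hoxb genes lie between -1.56 and -0.74, and the called Hoxc genes of groups 4, 8, 9 and 10 and Hoxd genes of groups 8, 9 and 10 lie between 0.56 and 1.36.

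Hoxc13 showed the largest change among the Hox genes. Its normalized counts were 531, 621 and 577 under WT and 41.0, 28.8 and 33.1 under Dab2-cKO. The lowest library of one group was thus far above the highest of the other. The level was 16.6-fold lower, a log2 fold change of -4.05 with an SE of 0.14 (adjusted p = 3.6e-37, edgeR). Set against Hoxa7 in the same library, a ratio that no scaling between libraries can change, Hoxc13 had 2.31 to 2.39 counts per count of Hoxa7 under WT and 0.107 to 0.146 under Dab2-cKO. It took 21.3 ± 0.574% of all normalized Hox counts of a library under WT and 1.65 ± 0.285% under Dab2-cKO. No exon of Hoxc13 overlapped that of another gene in the count table.

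The 250 bases before the annotated start of Hoxc13 (chr15:102829288-102829537, plus strand, GRCm39) are shown because the gene carries the largest change of the family. A total of 5 short motifs were searched on both strands, the TATA box core TATAAA, the core TTTAT of sites of posterior Hox proteins, the Lef and Tcf site CTTTGAT, the GC box GGGCGG and the CCAAT box, and capitals mark the matches.
Hoxc13 promoter: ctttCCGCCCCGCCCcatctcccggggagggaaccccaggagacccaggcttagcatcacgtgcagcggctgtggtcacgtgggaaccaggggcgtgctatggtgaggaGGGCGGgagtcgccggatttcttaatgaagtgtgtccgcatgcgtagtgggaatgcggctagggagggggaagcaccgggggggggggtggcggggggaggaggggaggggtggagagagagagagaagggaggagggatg
It held 3 matches to the GC box, of which 2 are on the reverse strand, and none to the other 4. Of 21667 promoters of coding genes of the same length, 29.9% held a GC box, 12.5% the TATA box core, 40.1% the posterior Hox core, 3.18% the Lef and Tcf site and 36.2% a CCAAT box. Among the 39 Hox promoters the corresponding numbers were 14, 7, 18, 2 and 24. A match to the posterior Hox core lies within each match to the TATA box core, since the reverse complement of the latter contains it.

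Other regulators of the hair matrix and shaft were lower with Hoxc13. All 8 transcription factors of the list were called lower, with a median log2 fold change of -2.95, where 11.5% of all genes were called lower. Dlx3, a homeobox gene of the hair matrix, fell by 4.21 on the log2 scale (SE 0.09, adjusted p = 1.5e-49, edgeR), with 2276 ± 167 against 123 ± 6.52 normalized counts. Msx2, another homeobox gene, fell by 4.22 (SE 0.13, adjusted p = 2.8e-39), and Lef1, which carries Wnt signals to its target genes, fell by 3.09 (SE 0.10, adjusted p = 2.0e-38). The 14 keratin genes of the hair cortex and cuticle were all called lower as well, with a median of -6.55. Krt83 had 7900, 9618 and 8807 normalized counts under WT and 42.9, 39.1 and 46.4 under Dab2-cKO. Krt81 had 5612 ± 532 against 36.4 ± 4.35 and Krt33a 3992 ± 262 against 32.5 ± 0.737. Both lists move with the hair matrix and inner root sheath markers given above, 9 of 9 of which were lower, and the part of these cells in the level of Hoxc13 was not tested. By histology, the paper places both genotypes in the second telogen, a resting phase of the hair cycle, on the day of sampling. How that staging relates to the level of these markers was not tested.

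The Hoxb genes of groups 3 to 8 were all lower in the libraries labelled Dab2-cKO, and they include the most abundant Hoxb genes, Hoxb7 and Hoxb6. Of these genes, Hoxb6, Hoxb7 and Hoxb8 are expressed in the trunk of the embryo. Hoxb6 had 193, 203 and 203 normalized counts under WT and 95.4, 84.0 and 67.3 under Dab2-cKO. Its groups did not overlap, and the level was 2.42-fold lower (log2 fold change -1.27, SE 0.15, adjusted p = 7.1e-11, edgeR). Hoxb8 had 108, 116 and 108 against 39.1, 27.6 and 45.3 normalized counts. It was 2.95-fold lower, the largest change among the tested Hoxb genes (log2 fold change -1.56, SE 0.21, adjusted p = 3.9e-09). Hoxb7 had 145, 202 and 151 against 81.1, 86.3 and 94.9, again without overlap, and was 1.91-fold lower (log2 fold change -0.93, SE 0.16, adjusted p = 1.5e-06).

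Hoxb5 had 61.2, 56.9 and 60.7 normalized counts under WT and 17.2, 34.5 and 28.7 under Dab2-cKO, which is 2.25-fold lower (SE 0.27 on the log2 scale, adjusted p = 3.6e-04, edgeR). Hoxb4 had 94.6, 124 and 88.0 against 57.2, 57.5 and 68.4 and was 1.67-fold lower (SE 0.19, adjusted p = 0.0015). In both genes the 2 groups did not overlap. Hoxb3 had 65.7, 120 and 90.6 against 68.7, 28.8 and 29.8. It was called (2.14-fold lower, SE 0.25, adjusted p = 2.6e-04), yet Dab2-cKO replicate 1 reached above the lowest WT library. Per kb, Hoxb5 and Hoxb3 were above the receptor background with WT and under it with Dab2-cKO. Hoxb1 was low throughout, with 31.2, 26.2 and 29.9 against 11.4, 6.90 and 17.7 normalized counts, and stayed under the receptor background per kb in both groups (2.40-fold lower, SE 0.40, adjusted p = 0.01). The call of Hoxb4 was lost without WT replicate 2 (adjusted p = 0.0523) and that of Hoxb1 without Dab2-cKO replicate 2 (adjusted p = 0.0661).

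Hoxb2, Hoxb9 and Hoxb13 were not called. Hoxb9 had 49.0, 59.6 and 58.1 against 26.7, 39.1 and 46.4 normalized counts, with no overlap and a log2 fold change of -0.59 (SE 0.26, adjusted p = 0.083, edgeR). Hoxb13 and Hoxb2 had 17.8, 9.03 and 11.96 against 21.9, 18.4 and 12.1, and 24.5, 33.4 and 35.03 against 24.8, 39.1 and 30.9, and their groups overlapped. Where strand is not used, reads of overlapping exons cannot be assigned to a single gene, and could be left out or counted for both. The strand setting of the counting is not given in the sources used here. Of the exon bases of Hoxb3, 51.5% lie under genes of the opposite strand, with Hoxb3os the largest overlap. Of those of Hoxb6, 30.8% lie under the opposite-strand gene Hoxb5os, and of those of Hoxb5, 9.48%. Hoxb1, Hoxb4, Hoxb7 and Hoxb8 share no exon base with another gene of the count table.

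**Figure D3:**
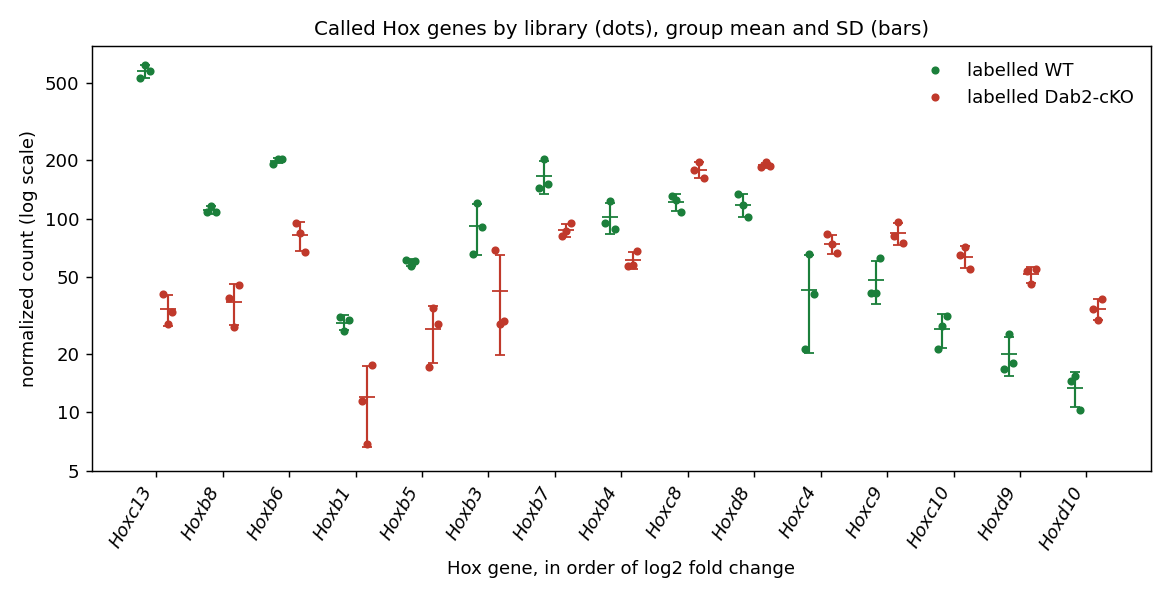
Normalized counts (log axis) of the 15 called Hox genes, ordered by log2 fold change. Dots are libraries, with horizontal bars for the mean and vertical bars for the SD of 3 libraries. The 8 genes on the left are lower and the 7 on the right higher in the libraries labelled Dab2-cKO, and the groups overlap only in Hoxb3.

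The promoter of Hoxb8 (chr11:96172481-96172730, plus strand, GRCm39) is given beside that of Hoxc13 because Hoxb8 changed most within its cluster, with capitals at matches to the same motifs.
Hoxb8 promoter: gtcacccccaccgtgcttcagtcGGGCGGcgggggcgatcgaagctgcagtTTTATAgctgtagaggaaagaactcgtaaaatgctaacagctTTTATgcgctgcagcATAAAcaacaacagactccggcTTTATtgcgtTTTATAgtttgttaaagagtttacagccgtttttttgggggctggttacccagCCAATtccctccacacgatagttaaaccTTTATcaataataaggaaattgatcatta
It held 6 matches to the posterior Hox core and 2 to the TATA box core, which overlap 2 of the former, with 1 GC box, 1 CCAAT box and no Lef and Tcf site.

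In the Hoxc cluster the tested genes of groups 4, 8, 9 and 10 were higher in the libraries labelled Dab2-cKO. Hoxc10, a gene of the lower trunk and hind limb, had 21.2, 28.0 and 31.6 normalized counts under WT and 64.8, 71.3 and 55.2 under Dab2-cKO. All libraries of the second group were above all of the first, for a 2.34-fold higher level (log2 fold change 1.23, SE 0.26, adjusted p = 9.6e-05, edgeR). Per kb, Hoxc10 was under the receptor background with WT and above it with Dab2-cKO. Hoxc9 had 41.2, 41.5 and 62.4 against 81.1, 96.7 and 75.1 (1.72-fold higher, SE 0.22 on the log2 scale, adjusted p = 0.003). Hoxc8 had 131, 125 and 109 against 179, 197 and 162 (1.48-fold higher, SE 0.14, adjusted p = 0.0011). In none of these 3 genes did the groups overlap. Hoxc4 had 21.2, 65.9 and 41.0 against 83.0, 73.6 and 66.2 and was called at 1.71-fold (SE 0.25, adjusted p = 0.011), and WT replicate 2 lay just under the lowest library labelled Dab2-cKO. Its call was lost without WT replicate 1 (adjusted p = 0.151) and without Dab2-cKO replicate 1 (adjusted p = 0.0756). Hoxc5, Hoxc6 and Hoxc11 were not called, with log2 fold changes from 0.04 to 0.30. Of the exon bases of Hoxc10, 8.11% are shared with Hoxc5 on the same strand, where a strand setting cannot separate reads.

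In the Hoxd cluster the 3 neighbours Hoxd8, Hoxd9 and Hoxd10 were higher. Hoxd8 had 135, 117 and 103 normalized counts under WT and 184, 196 and 187 under Dab2-cKO (log2 fold change 0.68, SE 0.14, adjusted p = 6.4e-05, edgeR). Hoxd9 had 16.7, 25.3 and 17.9 against 53.4, 46.0 and 55.2 (2.56-fold higher, log2 fold change 1.36, SE 0.30, adjusted p = 1.3e-04). Hoxd10 had 14.5, 15.3 and 10.3 against 34.3, 29.9 and 38.6 (2.57-fold higher, log2 fold change 1.36, SE 0.37, adjusted p = 0.0022). None of the 3 had overlapping groups, and Hoxd9 and Hoxd10 were under the receptor background with WT and above it with Dab2-cKO. Hoxd12 was low, with 16.7, 18.1 and 18.8 against 4.77, 10.4 and 14.3 normalized counts. Its groups did not overlap and it was not called (log2 fold change -0.88, SE 0.48, adjusted p = 0.19). Hoxd3, Hoxd4 and Hoxd11 were not called and their groups overlapped. Of the exon bases of Hoxd8, 15.0% lie under the opposite-strand gene Hoxd3os1. Of those of Hoxd10, 5.61% are shared with Gm28309 on the same strand.

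With TMM scaling and all 6 libraries, no Hoxa gene was called. Hoxa7, the most abundant of them, had 223, 262 and 249 normalized counts under WT and 281, 268 and 234 under Dab2-cKO, with a log2 fold change of 0.09 (SE 0.11, adjusted p = 0.64, edgeR). The groups overlapped, and its SE was the smallest among the Hox genes not called. Hoxa10, the paralog of Hoxc10 and Hoxd10, had 42.3, 41.5 and 21.4 against 60.1, 42.6 and 59.6, just without overlap, and a log2 fold change of 0.64 (SE 0.27, adjusted p = 0.065). It was called higher without WT replicate 1 (adjusted p = 0.04) and without Dab2-cKO replicate 2 (adjusted p = 0.042). With library size as the only scaling, Hoxa3 (log2 fold change -0.74, adjusted p = 0.004) and Hoxa7 (-0.33, adjusted p = 0.01) were called lower. The other 7 tested genes of the cluster had log2 fold changes from -0.31 for Hoxa3 to 0.51 for Hoxa2, with overlapping groups.

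Within paralog groups the clusters could take opposite directions. In group 8, Hoxb8 was lower while Hoxc8 and Hoxd8 were higher. The homeoboxes of these genes are shown because the proteins bind DNA with nearly the same domain, with capitals at bases that differ from Hoxc8. Their positions in GRCm39, all on the plus strand, are chr15:102901003-102901182 for Hoxc8, chr11:96175000-96175179 for Hoxb8 and chr2:74536869-74537048 for Hoxd8.
Hoxc8: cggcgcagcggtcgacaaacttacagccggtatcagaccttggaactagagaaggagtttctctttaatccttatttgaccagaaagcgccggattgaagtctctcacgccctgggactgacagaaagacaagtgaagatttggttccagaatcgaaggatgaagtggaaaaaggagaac
Hoxb8: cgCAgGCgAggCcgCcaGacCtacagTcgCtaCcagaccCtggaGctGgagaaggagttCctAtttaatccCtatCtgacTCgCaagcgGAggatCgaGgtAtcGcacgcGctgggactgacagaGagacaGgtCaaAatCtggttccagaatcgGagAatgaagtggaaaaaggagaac
Hoxd8: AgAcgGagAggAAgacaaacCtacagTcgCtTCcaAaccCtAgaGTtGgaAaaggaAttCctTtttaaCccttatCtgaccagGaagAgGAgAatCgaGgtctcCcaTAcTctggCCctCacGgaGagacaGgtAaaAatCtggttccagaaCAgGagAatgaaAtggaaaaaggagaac
Hoxb8 differs from Hoxc8 at 36 and Hoxd8 at 48 of the 180 bases, with no identical run beyond 21 bases. Counted within each library, Hoxb8 had 0.822, 0.928 and 0.992 counts per count of Hoxc8 under WT and 0.218, 0.140 and 0.279 under Dab2-cKO. The ratio of Hoxb8 to Hoxd8 went from 0.948 ± 0.130 to 0.199 ± 0.0521. In group 4, the ratio of Hoxb4 to Hoxc4 was 4.47, 1.88 and 2.15 against 0.690, 0.781 and 1.03, and in group 9 that of Hoxb9 to Hoxc9 was 1.19, 1.43 and 0.932 against 0.329, 0.405 and 0.618. None of these ratios overlapped between the groups. That adds nothing to the single genes, since each pair set a gene lower without overlap against one higher without overlap. In group 10 the 3 paralogs had the same sign, with Hoxc10 and Hoxd10 called higher and Hoxa10 not called.

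Summed over a cluster, the Hoxb genes had 859 ± 82.9 normalized counts under WT and 436 ± 11.7 under Dab2-cKO, and Hoxd had 253 ± 17.7 against 370 ± 11.9. The Hoxc genes without Hoxc13 had 420 ± 42.0 against 607 ± 58.4, and Hoxa had 593 ± 22.2 against 626 ± 20.7. As shares of all Hox counts other than Hoxc13, which do not depend on the scaling of libraries, Hoxb went from 40.4 ± 1.77% to 21.4 ± 0.731%, Hoxc from 19.7 ± 1.05% to 29.8 ± 2.52%, Hoxd from 11.9 ± 1.30% to 18.2 ± 0.862% and Hoxa from 28.0 ± 1.76% to 30.7 ± 1.16%. The Hoxb, Hoxc and Hoxd shares did not overlap between the groups and the Hoxa shares did. Shares of a common total are tied to each other, so the lower Hoxb share by itself raises the other shares. They therefore cannot show whether the Hoxc and Hoxd levels rose. With library size as the only scaling, the sums of Hoxc without Hoxc13 and of Hoxd overlapped between the groups. The Hoxa sum was then lower in every library labelled Dab2-cKO. The sum over the 38 genes other than Hoxc13 was 2124 ± 112 under WT and 2039 ± 30.6 under Dab2-cKO, with overlapping libraries.

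**Figure D4:**
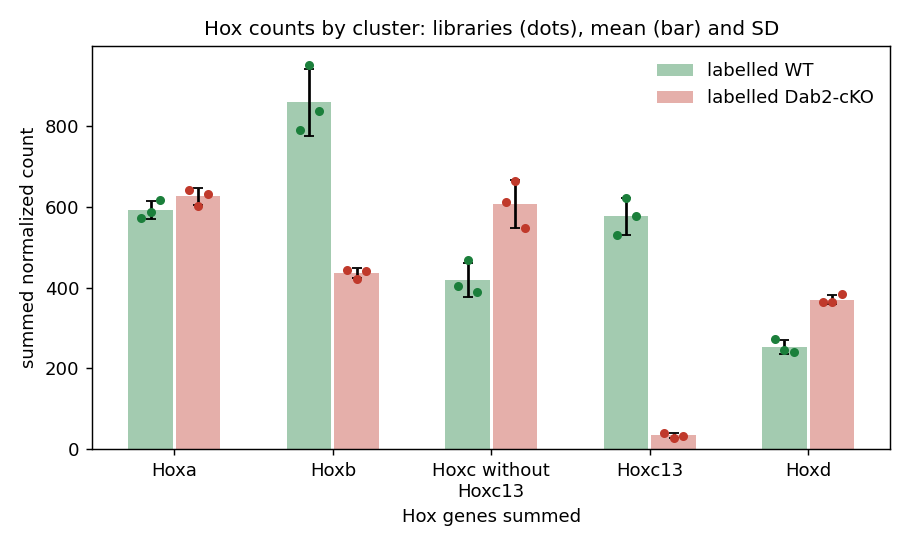
Summed normalized counts of the Hox genes of each cluster, with Hoxc13 apart from the rest of Hoxc. Dots are libraries, bars means and error bars the SD of 3 libraries. Hoxb and Hoxc13 are lower in the libraries labelled Dab2-cKO (436 against 859 and 34.3 against 576), and Hoxd and the other Hoxc genes are higher (370 against 253 and 607 against 420).

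The number of genes called higher depended on the scaling of the libraries. With library size as the only scaling, the median log2 fold change of all genes was -0.45, and 12 of the 34 tested Hox genes were called lower and 3 higher, where 34.7% of all genes were called lower and 8.35% higher. The 3 were Hoxc10, Hoxd9 and Hoxd10. The Hox counts at this scaling were near the shares of all genes. Hoxa3, Hoxa7, Hoxb9 and Hoxd12 joined the 8 genes called lower. Hoxc4, Hoxc8, Hoxc9 and Hoxd8 kept their sign and lost the call, at 0.36, 0.14, 0.36 and 0.25. Per 1000000 counts of the library, the Hoxc genes without Hoxc13 had 47.8 to 54.7 counts under WT and 49.9 to 61.4 under Dab2-cKO, the Hoxd genes 28.6 to 34.8 against 32.6 to 35.1, and the Hoxa genes 68.7 to 75.9 against 55.9 to 57.8, so that the direction of the Hoxa sum turned. The Hoxb genes had 101 to 111 against 39.1 to 40.3. The libraries also differed in composition, with 33.1 to 33.9% of all counts in the top 100 genes under WT and 44.5 to 46.6% under Dab2-cKO, and mitochondrial genes took 12.99 to 14.4% against 19.1 to 20.3%. The part of these differences in the levels of Hox genes was not tested.

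**Figure D5:**
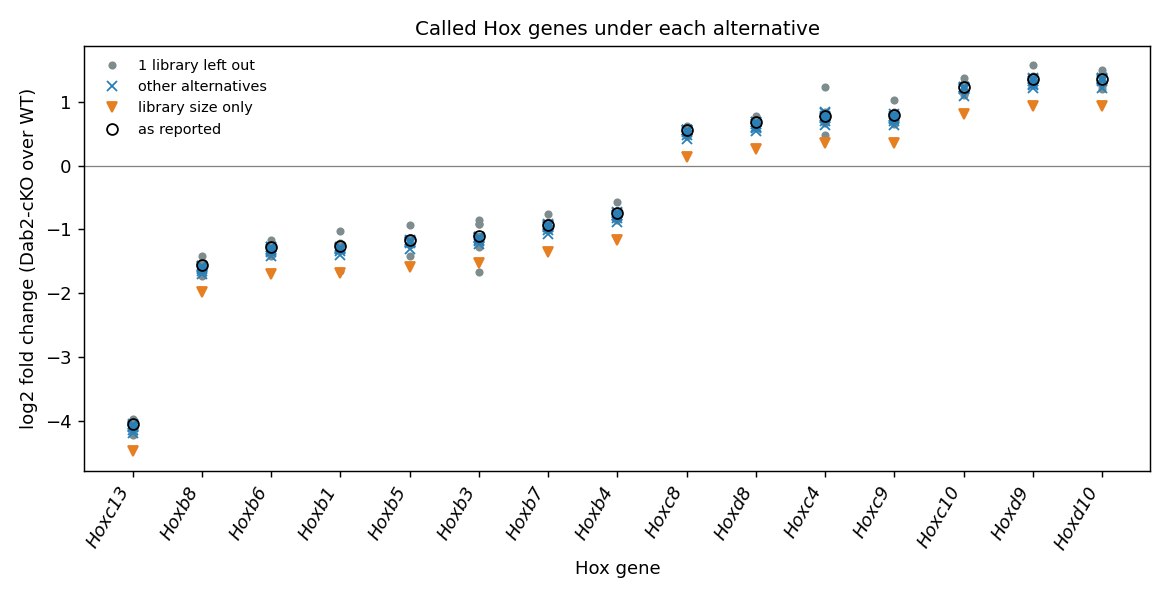
Log2 fold change of the 15 called Hox genes as reported (circles), with library size as the only scaling (triangles), under the other alternatives (crosses) and with 1 library left out (dots). All points of a gene lie on the same side of 0, and Hoxc8 comes nearest to it, at 0.14 with library size only.

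The 4 clusters also hold other genes, many of them long non-coding RNAs, of which 46 are in the count table and 15 passed the filter. Of these, 2 were called lower and 1 higher, where 11.5% and 16.8% of all genes were. The median log2 fold change of the 15 was -0.30. Hoxb5os (chr11:96164373-96205983, minus strand), which runs opposite to Hoxb5 and Hoxb6, had 59.0, 74.0 and 69.2 normalized counts under WT and 17.2, 28.8 and 7.73 under Dab2-cKO (log2 fold change -1.92, SE 0.30, adjusted p = 1.3e-07, edgeR). Its groups did not overlap, and it went the same way as the Hoxb genes beside it. Gm53 (chr11:96126719-96160566, plus strand), which lies between Hoxb13 and Hoxb9, had 129, 135 and 150 against 297, 252 and 306 (log2 fold change 1.04, SE 0.12, adjusted p = 7.7e-11). It was thus higher within a cluster in which no Hox gene was called higher. Gm11536, on the minus strand within the span of Hoxb3, had 31.8 ± 8.57 against 16.2 ± 4.27 (log2 fold change -0.95, SE 0.36, adjusted p = 0.04). DESeq2 did not call it (adjusted p = 0.064), and the edgeR call was lost without WT replicate 1 or 3 or Dab2-cKO replicate 1 or 2 (adjusted p = 0.066 to 0.24). Hotair, the antisense RNA of the Hoxc cluster between Hoxc12 and Hoxc11, had 32.3, 37.0 and 18.8 against 23.8, 23.0 and 23.2 and was not called.

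Hox proteins bind DNA together with the homeodomain cofactors of the Pbx, Meis and Pknox families. Of 9 such genes, 3 were called higher and 1 lower, where 16.8% and 11.5% of all genes were. The median log2 fold change of the 9 was 0.06. With library size as the only scaling 6 were called lower, where 34.7% of all genes were. Meis3, of the Meis family, had 43.4 ± 5.88 against 87.9 ± 6.95 (log2 fold change 1.02, SE 0.22, adjusted p = 8.4e-05, edgeR). Pknox1 had 275 ± 21.2 against 201 ± 43.3 (log2 fold change -0.45, SE 0.12, adjusted p = 0.0025).

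Polycomb proteins keep Hox genes silent outside their domain and trithorax proteins keep them active. Of 21 genes of both groups, 7 were called lower and 2 higher, where 11.5% and 16.8% of all genes were. The median of the 21 was -0.04. With library size as the only scaling, 17 were called lower and 1 higher, where 34.7% and 8.35% of all genes were. The 3 with the smallest adjusted p, Suz12, Jarid2 and Ezh2, encode subunits of or a partner of Polycomb repressive complex 2. Suz12 had 701, 684 and 584 against 400, 379 and 349 normalized counts (log2 fold change -0.80, SE 0.09, adjusted p = 7.4e-12, edgeR). Ezh2 had 622 ± 19.5 against 434 ± 31.6 (log2 fold change -0.52, SE 0.09) and Jarid2 1055 ± 95.8 against 757 ± 44.9 (log2 fold change -0.48, SE 0.08). Eed, the other core subunit, was not called, with 245, 223 and 247 against 241, 212 and 233.

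Retinoic acid induces Hox genes in the embryo. Of 16 genes for its synthesis, breakdown, uptake and receptors, 5 were called higher and 3 lower, where 16.8% and 11.5% of all genes were. The median of the 16 was 0.11. With library size as the only scaling, 3 were called higher and 6 lower, where 8.35% and 34.7% of all genes were. Cyp26b1, which degrades retinoic acid, had 279, 338 and 296 against 1146, 1288 and 1312 normalized counts (log2 fold change 2.03, SE 0.08, adjusted p = 1.3e-32, edgeR). Aldh1a1, which makes it, had 210 ± 24.2 against 882 ± 52.2 (log2 fold change 2.08, SE 0.09). Stra6, the membrane receptor for the retinol carrier, went down from 397 ± 50.4 to 93.1 ± 11.1 (log2 fold change -2.09, SE 0.13).

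Dermal cells have their own Hox levels, and markers of other cell types moved with the comparison. Besides the fibroblast and muscle lists above, 6 of 6 endothelial markers (1441 to 1603 against 4969 to 5104 summed normalized counts) and 6 of 7 immune markers (1420 to 1601 against 6488 to 6769) were called higher, while 6 of 7 melanocyte markers were called lower (3350 to 3682 against 1204 to 1233). Of 10 markers of the HFSC bulge, 7 were called higher, Cd34 and Itga6 among them, and Lhx2, Lgr5 and Sox9 were called lower. Among all genes tested, 16.8% were called higher and 11.5% lower. None of the defining markers of these lists was at 0 in any library. The part of these cells in the Hoxb, Hoxc and Hoxd differences was not tested.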

How the data were processed

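HFSCs of 3 libraries labelled WT and 3 labelled Dab2-cKO were profiled by total RNA-seq. Per the labels, the authors checked reads with FastQC 0.11.9, trimmed them with fastp 0.23.4, aligned them to GRCm39 with HISAT2 2.2.1, sorted them with SAMtools 1.6 and counted them per gene with featureCounts 2.0.6. The deposited counts were not normalized and summed to between 7040032 and 11696457 per library. The library kit is stranded, but the strand setting of the counter, its handling of reads with several hits or molecular identifiers and the annotation release are not given in the sources used here. A second deposited table, with the authors' own DESeq2 comparison and counts divided by size factors, was not used.

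Groups came from the sample titles. The table names the second group FL-FL, which the series title equates with Dab2-cKO. Genes were filtered with filterByExpr, scaled by TMM and compared by the quasi-likelihood test of edgeR 4.0.16 in R 4.3.3 with robust dispersions, genotype as the term and Benjamini-Hochberg adjustment over 32149 genes, called under 0.05. The p-values set the difference between the groups against the spread between these libraries. The test was tested on simulated data for this comparison over 32149 genes. There it recovered 83% of 100 genes changed by 1 on the log2 scale and 100% of 100 genes changed by 2. In the libraries themselves, 28.2% of all genes were called. Recovery at the counts and the spread of the Hox genes was not tested. Lengths, positions and overlaps came from GENCODE vM39 on GRCm39, the build of the files. Homeoboxes of 180 bases and promoters of 250 bases were read from this genome. DESeq2 1.42.0, other scalings and filters, GC offsets, the replicate block and the leaving out of each library were tried as alternatives, and were run on the named genes outside the Hox family after the data were seen. A count of 0 allows up to 3 counts, and such limits cover counting error only.

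The members and all gene lists were chosen with earlier results of these data known. Values are given in full for Hoxc13 and the called Hox genes, and of each other list at most the 3 called genes with the smallest adjusted p were to be named. The single-library values of Hoxa7, Hoxa10, Hoxb2, Hoxb9, Hoxb13, Hoxd12, Hotair and Eed and the stem cell markers were added after their values were seen. Results of a few items are not reported here.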

Additional observations from a re-analysis of the deposited data

How the results depend on the processing

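Low counts limit the Hox genes of the outer paralog groups, with 0 to 26 per library in the 5 that were not tested, and SEs of the called genes were 0.14 to 0.40 on the log2 scale. Of the 15 called genes, 9 kept their call under every one of 15 alternatives in which they were tested and none changed sign. The replicate numbers shared by the labels did not pair the libraries (correlations of deviations 0.07, -0.02 and 0.06 over 14777 genes), and with the replicate block 8 Hox genes were called lower and 7 higher, the same genes as without it. GC offsets and DESeq2 also gave 8 lower and 7 higher. With upper-quartile scaling, under which the median of all genes was -0.17, they were 9 and 7, with library size only 12 and 3, and 6 and 4 where only the 16 Hox genes with a mean count of 50 or more were tested. The Hox genes without overlap and higher were 3 with library size only. The share of all genes without overlap at that scaling is not given here, and the 20.6% above belongs to TMM scaling. Without any one library, 7 to 9 were called lower and 6 to 8 higher.

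Of the other lists, with library size only 6 Hox cofactors, 17 Polycomb and trithorax genes, 6 retinoic acid genes and 4 other genes of the clusters were called lower, and 1 Polycomb or trithorax gene and 3 retinoic acid genes higher. At that scaling, 34.7% of all genes were called lower and 8.35% higher. With upper-quartile scaling 2 Hox cofactors were lower. Of the other genes of the clusters, DESeq2 called 1 lower, a mean count of at least 50 left 0 lower (edgeR), and no filter gave 2 higher. Without any one library, 1 to 2 of these genes were lower and 1 to 2 higher, and 2 to 4 Polycomb and trithorax genes were higher, 4 of them without WT replicate 2. All 8 hair transcription factors and all 14 hair keratin genes were called lower without any one library.

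Among genes not called, 11 changed sign in at least 1 alternative. With library size only the log2 fold changes were -0.32 for Hoxd11, -0.40 for Hoxd3, -0.089 for Hoxd4, -0.33 for Hoxa7 (adjusted p = 0.01, edgeR), -0.18 for Hoxa9, -0.41 for Hoxb2, -0.38 for Hoxc11, -0.38 for Hoxc5 and -0.13 for Hoxc6. With upper-quartile scaling they were -0.040 for Hoxd11, -0.12 for Hoxd3, -0.049 for Hoxa7, -0.13 for Hoxb2, -0.10 for Hoxc11 and -0.10 for Hoxc5. Hoxb2 was at -0.018 with TMM without mitochondrial and the 100 most abundant genes, -0.022 with no filter, -0.017 with GC offsets and -0.0021 with GC offsets and the block, Hoxc11 at -0.013 with GC offsets and -0.051 with the block added, Hoxd3 at -0.0031 with no filter and Hoxc5 at -0.042 with a mean count of at least 50. Without any one library, Hoxa5 ranged from -0.27 to 0.14, Hoxa6 from -0.41 to 0.19, Hoxb2 from -0.19 to 0.15, Hoxc11 from -0.17 to 0.25, Hoxc5 from -0.18 to 0.25, Hoxd11 from -0.22 to 0.45 and Hoxd3 from -0.28 to 0.67. Calls were gained by Hoxa3, Hoxa7, Hoxb9 and Hoxd12 with library size only, by Hoxb9 with upper-quartile scaling and without Dab2-cKO replicate 3, and by Hoxa10 without WT replicate 1 or Dab2-cKO replicate 2. For the results that changed, the cause was not tested.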
